A study of Mus musculus with 4 samples.

Results

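The potassium channel genes are the 92 genes of the deposited table, of 46072 in all, whose symbol starts with Kcn and goes on with a subfamily letter code and a number. They fall into 20 subfamilies: 16 that form the channel pore and 4 (Kcnab, Kcnip, Kcne and Kcnmb) that code for auxiliary subunits. Genes enter by name alone, by a rule that uses no measured value, although the family itself was picked for description with earlier results of these data known. Poly(A) RNA was sequenced in 4 libraries of laser-captured brain vascular cells, which the labels call endothelial, from perfusion-fixed wild-type (WT) mice with no treatment. The strain, sex and age, the marker that guided the capture, and whether the libraries came from separate animals are not given in the labels, so every p-value rests on the spread between these 4 libraries, which may be technical. There is 1 group, so each gene could be set only against a fixed level, against other genes of the same library, or against the same gene in the other libraries. Values are FPKM, fragments scaled for transcript length and for the number mapped, and every ± below is an SD over the 4 libraries unless another error is named.

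Potassium channels let potassium leave or enter the cell and so set the resting potential and end electrical signals. Voltage-gated channels open on depolarisation, inward rectifiers pass potassium best near rest, two-pore channels carry background currents, and calcium- or sodium-activated channels answer to those ions inside the cell. In brain vessels, inward rectifier and calcium-activated channels are known for spreading hyperpolarisation along the endothelium, ATP-sensitive channels for acting in pericytes and smooth muscle, and other members for work in neurons, astrocytes and the choroid plexus, the epithelium that makes cerebrospinal fluid.

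The pore of these channels is lined by a selectivity filter whose core is Gly-Tyr-Gly, or Gly-Phe-Gly in some members, and this stretch separates pore-forming from auxiliary members. The sequences below are 33 bases of coding sequence, 5′ to 3′, around that core in 8 members, from 6 subfamilies, that the results return to, read from the GENCODE M21 transcripts on GRCm38. Capitals mark the 9 bases of the 3 core codons.
Kcnj13, chr1:87389009-87389041, minus strand: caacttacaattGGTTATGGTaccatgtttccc
Kcnj9, chr1:172326172-172326204, minus strand: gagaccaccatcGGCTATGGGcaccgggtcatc
Kcnj8, chr6:142566436-142566468, minus strand: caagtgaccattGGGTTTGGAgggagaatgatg
Kcnk1, chr8:125995802-126025031, plus strand: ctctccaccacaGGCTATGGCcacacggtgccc
Kcna6, chr6:126738635-126738667, minus strand: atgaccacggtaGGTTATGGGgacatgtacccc
Kcnc4, chr3:107447787-107447819, minus strand: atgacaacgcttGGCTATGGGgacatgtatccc
Kcnh3, chr15:99232923-99232955, plus strand: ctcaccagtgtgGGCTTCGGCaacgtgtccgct
Kcnma1, chr14:23528401-23528433, minus strand: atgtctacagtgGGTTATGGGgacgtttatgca

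The Kcnk1 stretch spans a splice junction, so its coordinates enclose an intron, and the other 7 lie within 1 exon. In the longest complete coding sequence of each gene, read in frame on the sense strand only, GGNTANGGN was found in 62 of 92 members (67.4%), against 1304 of 21228 protein-coding genes of the table (6.14%). A second form, GGNTTNGGN, was searched after the first had been seen and covers Gly-Phe-Gly and only some codon forms of Gly-Leu-Gly. It was the only form in 15 more members: 7 Kcnh genes, Kcnj8, Kcnj11, Kcnk2, Kcnk12, Kcnk13, Kcnt1, Kcnt2 and Kcnu1. The 2 forms cannot start at the same codon. One or the other was in 77 of 77 members of the pore-forming subfamilies and in 0 of 15 auxiliary members, against 16.8% of all protein-coding genes. A match describes the letters and shows no function.

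Several features of these libraries touch every result below. Of 16 pan-endothelial markers, 13 were above 1 FPKM, 1 (Erg) was below and 2 (Cdh5 and Robo4) passed in neither direction, in limma's moderated test adjusted over all genes. The median of the 16 was 4.52 ± 0.777 FPKM. Markers of most other cells were higher and those of pericytes overlapped: the medians were 204 ± 25.5 FPKM for 7 neuronal genes, 97.7 ± 7.92 FPKM for 7 astrocyte genes, 535 ± 50.4 FPKM for 6 oligodendrocyte genes, 24.3 ± 5.40 FPKM for 6 choroid plexus genes, 24.8 ± 3.37 FPKM for 5 smooth muscle genes, 15.3 ± 1.70 FPKM for 6 microglial genes and 4.61 ± 1.04 FPKM for 7 pericyte genes. None of these 60 markers was listed at 0. Their part in the levels of the channel genes was not tested, and fewer cells of a type cannot be told apart from less RNA per cell. The number of reads behind a value is unknown, so a gene without signal is described as listed at 0. The summed FPKM of a library was 448678 to 482882.

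Most potassium channel genes were measurable, and a few carried most of the signal. Of the 92 members, 16 averaged at least 10 FPKM, 47 averaged 1 to 10 FPKM, 23 averaged below 1 FPKM but above 0, and 6 were listed at 0 in every library. Against 1 FPKM, 53 of the 86 members tested were above (61.6%) and 16 below (18.6%), with 17 in neither (limma, adjusted p under 0.05 over 25206 genes). Among all genes tested, 47.7% were above and 40.1% below. Each library's FPKM rescaled to a fixed sum, which moves all values up by 1.10 on the log2 scale, gave 65 members above and 10 below, and 13693 of all genes above and 7474 below. For comparison, 20 of 35 voltage-gated sodium and calcium channel genes (57.1%) and 29 of 37 glutamate, GABA and glycine receptor genes (78.4%) were above 1 FPKM. The median of all 92 channel genes, including the 6 listed at 0, was 2.57, 2.31, 2.75 and 2.46 FPKM in replicates 1 to 4. It was 1.43 ± 0.107 FPKM for all genes tested, a set without genes listed at 0 in every library. With those genes included, the median of all 46072 genes of the table was 0.

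Set against the median of the pan-endothelial markers within each library, 31 of 86 members were above (36.0%) and 48 below (55.8%), with 7 in neither. Of all genes tested, 30.6% were above and 60.9% below. This fit takes the spread of a gene from a trend with mean level and gives its own spread no weight, because every gene shares the variation of the marker median. Only the counts and differences of the fit are therefore given. With each gene's own variance, chosen as an alternative after seeing the data, the same 31 members were above, and 45 were below, 43 of them shared. Of all genes, 7238 were then above and 14763 below.

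**Figure D1:**
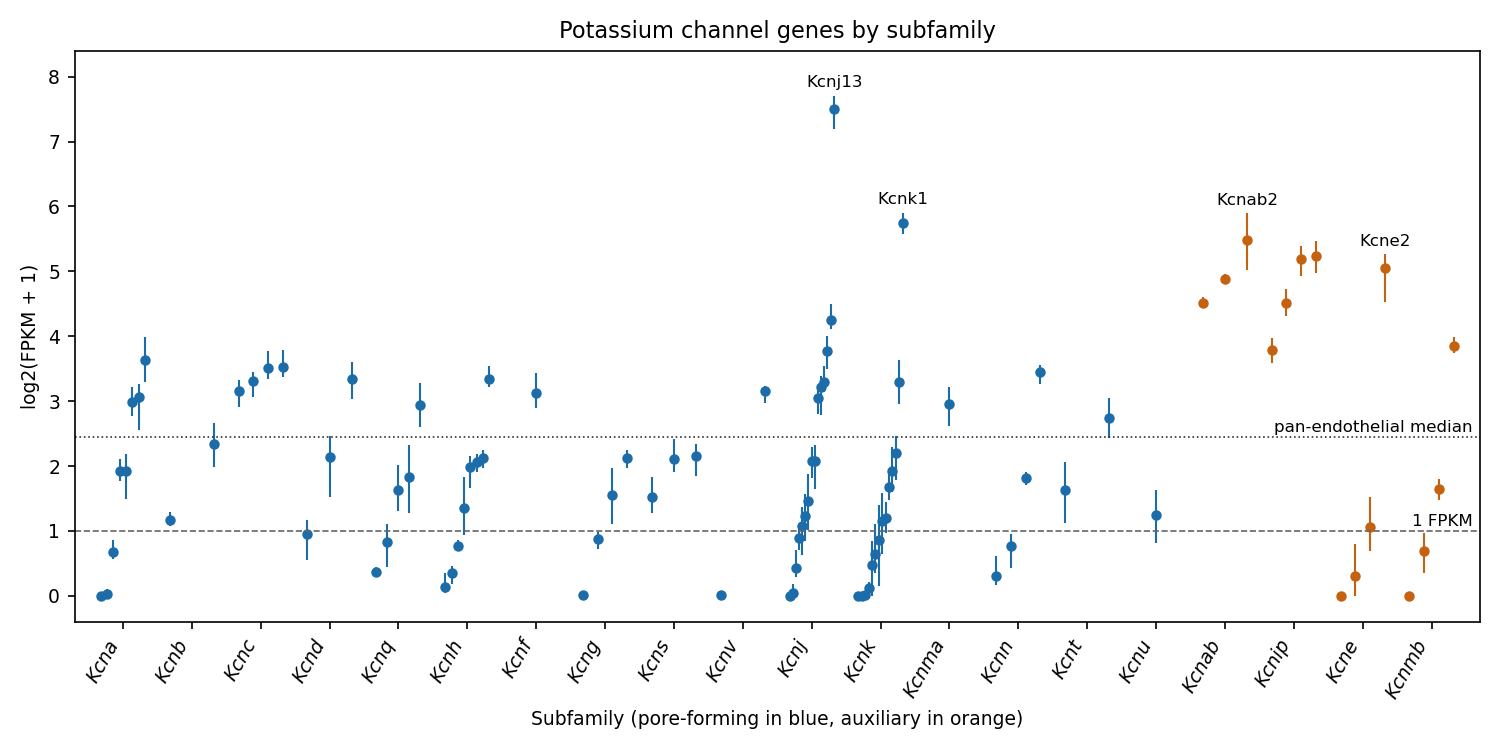
Each point is the mean over 4 libraries of 1 of the 92 potassium channel genes on the log2(FPKM + 1) scale, by subfamily, and the vertical line is the range over libraries. The dashed line is 1 FPKM and the dotted line the pan-endothelial median. Kcnj13 stands highest, and all Kcnab and Kcnip members lie above both lines.

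The members summed to 754 ± 43.1 FPKM, 0.162% ± 0.00931 of a library's summed FPKM. Kcnj13 alone made up 23.9% ± 2.91 of that sum and the 10 highest members 62.5% ± 1.80. Auxiliary genes held 33.3% ± 2.25. Of the auxiliary genes, 10 of 13 tested were above 1 FPKM (76.9%), against 43 of 73 pore-forming genes (58.9%) and 47.7% of all genes tested. With genes listed at 0 included, the median was 13.6 ± 0.988 FPKM over all 15 auxiliary genes. It was 2.42 ± 0.253 FPKM over all 77 pore-forming genes. That difference in medians had 1 sign in every library and was larger than the spread between libraries, but was not tested against the spread among genes.

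**Figure D2:**
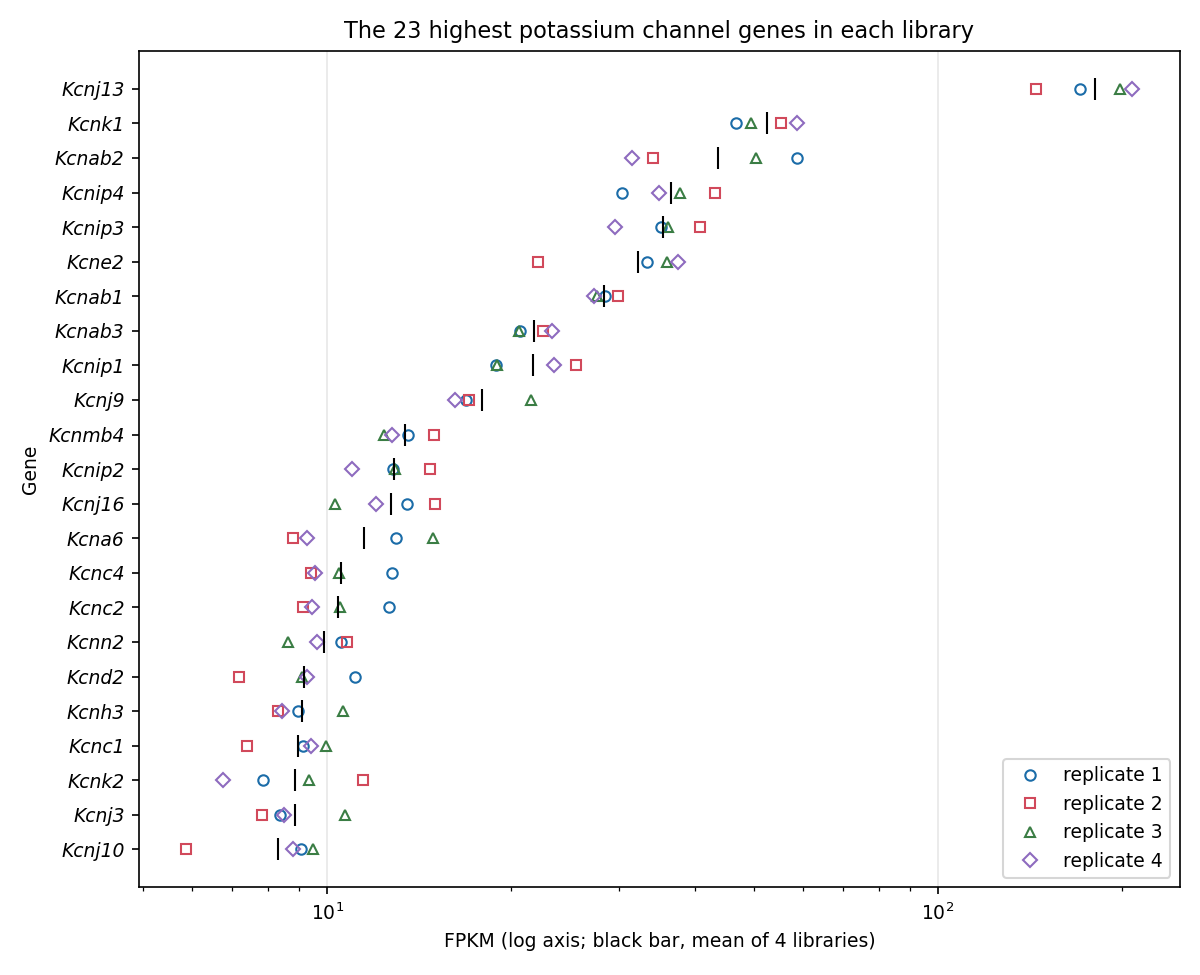
FPKM (log axis) of the 23 highest potassium channel genes in each of 4 libraries, with the mean as a black bar. Kcnj13 lies between 145 and 208 FPKM, and no other member exceeds 58.8 FPKM in any library.

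The inward rectifiers of the Kcnj subfamily had the highest member and also wide differences. Of 14 Kcnj genes tested, 8 were above 1 FPKM (57.1%), 2 below (14.3%) and 4 in neither. Here and below, counts by class or subfamily stand beside 47.7% above and 40.1% below 1 FPKM among all genes tested. Against the pan-endothelial median those shares were 30.6% and 60.9%. No count by class or subfamily was tested against them. Kcnj13, the inward rectifier of the choroid plexus and retinal epithelia, was at 171, 145, 198 and 208 FPKM in replicates 1 to 4, a log2 difference from 1 FPKM of 6.49 ± 0.0995 (SE, limma adjusted p = 2.20e-07). Every library placed it above all other members. It lies on chromosome 1 (87386363 to 87394729), and 623 exonic bases, 49.1% of its own, are shared with Gigyf2 on the opposite strand. Gigyf2, which codes for a translational regulator, was at 28.5, 18.6, 31.0 and 27.6 FPKM, and the strand setting of the counting is not given in the sources used here, so reads of the 2 genes cannot be told apart where they overlap.

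Kcnj9, a subunit of the G protein-gated rectifiers of neurons, was at 16.9, 17.1, 21.6 and 16.2 FPKM (limma adjusted p = 8.55e-07), with replicate 3 apart from the other three. Kcnj3, a partner of the same channels, was at 8.38, 7.82, 10.7 and 8.49 FPKM (limma adjusted p = 4.72e-06) and was also highest in replicate 3. It shares 31.1% of its exonic bases with the opposite-strand gene Gm26794. Kcnj6, a further partner, was at 1.46, 0.550, 1.59 and 0.834 FPKM, on both sides of the level (limma adjusted p = 0.808). The other gene of this group, Kcnj5, averaged 0.350 ± 0.185 FPKM and was below (limma adjusted p = 0.00146). The neuronal trio thus ran from Kcnj9 through Kcnj3 to Kcnj6, with no overlap between their ranges.

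The astroglial rectifiers Kcnj16 and Kcnj10, which assemble with each other in glia that clear extracellular potassium, were both above 1 FPKM. Kcnj16 was at 13.5, 15.0, 10.3 and 12.03 FPKM (limma adjusted p = 3.03e-06). Kcnj10 was at 9.07, 5.89, 9.48 and 8.81 FPKM (limma adjusted p = 2.25e-05). Replicate 2 was highest and replicate 3 lowest for Kcnj16, and the reverse held for Kcnj10. Within library Kcnj10 was lower than Kcnj16 in 4 of 4 libraries, by -0.57 ± 0.47 on the log2(FPKM + 1) scale (exact 2-sided sign-flip test). With 4 libraries that test has 16 sign patterns and cannot reach 0.05, and for this pair and every other with 1 sign in 4 of 4 libraries it gave its smallest possible p. Genes of unlike level can keep 1 sign, or ranges without overlap, whatever their relation. The share of gene pairs of all kinds that do so was not worked out.

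Kcnj2, the rectifier best known in vascular endothelium, was at 2.67, 1.02, 2.06 and 1.25 FPKM, above the level in each library but not past the test (log2 difference 0.42 ± 0.186 SE, limma adjusted p = 0.0828). With only genes of at least 0.1 FPKM tested, it passed. Its paralogue Kcnj12 was at 3.53, 2.13, 4.02 and 3.21 FPKM (limma adjusted p = 0.00117), and the library order of both had replicate 2 lowest. Kcnj2 was lower than Kcnj12 in 4 of 4 libraries, by -0.64 ± 0.25, although their ranges overlapped. Kcnj2 was also lower than its chromosome 11 neighbour Kcnj16, whose end lies 38195 bases before its start, by -2.35 ± 0.51 in 4 of 4 libraries.

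The ATP-sensitive channels are built from a Kcnj8 or Kcnj11 pore and a sulfonylurea receptor, Abcc9 or Abcc8. Kcnj8, the pore of pericytes and smooth muscle, was at 2.504, 3.91, 2.85 and 3.57 FPKM (limma adjusted p = 6.14e-04). Abcc9, its usual partner, was at 1.22, 0.513, 1.51 and 0.417 FPKM (limma adjusted p = 0.594). Replicates 2 and 4 were the 2 highest for Kcnj8 and the 2 lowest for Abcc9. Kcnj8 was higher in 4 of 4 libraries, by 1.17 ± 0.61, with no overlap.
Kcnj11, the pore of neurons and beta cells, was at 0.780, 0.847, 1.12 and 0.634 FPKM (limma adjusted p = 0.295), and Abcc8 was at 1.502, 1.13, 2.04 and 0.857 FPKM (limma adjusted p = 0.217). Neither passed the test. Kcnj11 was lower than Abcc8 in 4 of 4 libraries, by -0.35 ± 0.18. Kcnj8 was higher than Kcnj11 in 4 of 4 libraries, by 1.18 ± 0.31, with no overlap. Against the pan-endothelial median Kcnj8 was below by -0.39, a call lost without replicate 1 (-0.28) or replicate 3 (-0.28). Kcnj12 was below by -0.39, a call lost without replicate 1 (-0.40) or replicate 2 (-0.28).
Of the other Kcnj genes, Kcnj4 averaged 7.29 ± 1.15 FPKM and was above 1 FPKM, Kcnj14 averaged 1.34 ± 0.538 FPKM and passed in neither direction, Kcnj15 was above 0 in 1 library only, and Kcnj1, the renal rectifier, was listed at 0 in all 4.

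The Kcnk subfamily, the two-pore background channels, had 5 of 12 tested genes above 1 FPKM (41.7%) and 4 below (33.3%), with 3 in neither. These shares were near the 47.7% and 40.1% of all genes tested. Kcnk1, found in astrocytes and other cells, was at 46.7, 55.3, 49.4 and 58.8 FPKM (limma adjusted p = 1.80e-07) and was the second highest member by mean. Kcnk2, a mechanically gated channel of neurons and brain vessels, was at 7.85, 11.4, 9.33 and 6.77 FPKM (limma adjusted p = 2.20e-05), highest in replicate 2. It shares 12.2% of its exonic bases with the opposite-strand gene A430027H14Rik. Kcnk1 was higher than Kcnk2 in 4 of 4 libraries, by 2.46 ± 0.34, with no overlap.

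Kcnk13, a channel of microglia, was at 4.05, 3.39, 4.50 and 2.44 FPKM (limma adjusted p = 6.87e-04). Kcnk6 was at 1.16, 0.280, 0.372 and 0.432 FPKM and was below (limma adjusted p = 0.0483), a call lost without replicate 2 (limma adjusted p = 0.157), 3 (limma adjusted p = 0.140) or 4 (limma adjusted p = 0.134). Its value in replicate 1 was on the other side of the level from the other three, and its sign turned when each library was rescaled to a fixed sum (0.072). Kcnk4 averaged 2.81 ± 0.800 FPKM and Kcnk3, an acid-sensitive channel, 2.204 ± 0.407 FPKM, both above, although 13.1% of the exonic bases of Kcnk4 are shared with Catsperz on the same strand. Kcnk12, Kcnk10 and Kcnk9 averaged 0.813 to 1.30 FPKM and passed in neither direction. Kcnk5 averaged 0.384 ± 0.404 FPKM and was below, which did not hold without replicate 2 (limma adjusted p = 0.0837) or replicate 4 (limma adjusted p = 0.0756). Kcnk7 and Kcnk15 averaged 0.0892 and 0.00791 FPKM and were below. Kcnk16 and Kcnk18 were listed at 0 in all libraries.

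Among the voltage-gated pore genes (Kcna, Kcnb, Kcnc, Kcnd, Kcnq and Kcnh), 19 of 29 tested were above 1 FPKM (65.5%) and 6 below (20.7%). All genes tested gave 47.7% and 40.1%. All 4 genes of the Kcnc subfamily, which lets neurons fire fast trains, were above 1 FPKM and above the pan-endothelial median. Kcnc4 was at 12.8, 9.41, 10.5 and 9.56 FPKM (limma adjusted p = 3.17e-06), and Kcnc2 was at 12.7, 9.13, 10.5 and 9.46 FPKM (limma adjusted p = 3.69e-06). These 2 genes, on chromosomes 3 and 10, had the same order of libraries. Kcnc1 was at 9.13, 7.38, 9.97 and 9.40 FPKM (limma adjusted p = 4.01e-06).

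The Kcna subfamily, the Shaker-type channels of axons and other cells, had 5 of 7 tested genes above 1 FPKM and 2 below. Kcna6 was at 12.9, 8.81, 14.9 and 9.28 FPKM (limma adjusted p = 1.90e-05), with replicates 1 and 3 above the other two. It shares 39.6% of its exonic bases with the opposite-strand gene Gm26673, which averaged 0.519 FPKM. Kcna2 was at 8.62, 4.87, 8.53 and 7.30 FPKM (limma adjusted p = 6.07e-05) and Kcna1 at 7.46, 6.12, 8.27 and 5.80 FPKM (limma adjusted p = 1.66e-05). These axonal genes, whose products assemble with each other, overlapped: Kcna1 was higher than Kcna2 in 1 library and lower in 3, with a difference of -0.06 ± 0.25 (exact sign-flip p = 0.625).

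Kcna3, the channel of T cells and microglia, was at 3.56, 3.11, 2.75 and 1.82 FPKM (limma adjusted p = 0.00251). Kcna4, which inactivates fast, averaged 2.77 ± 0.390 FPKM and was above. Kcna5, a channel of vascular smooth muscle, was at 0.629, 0.814, 0.475 and 0.492 FPKM and was below (log2 difference -0.32 ± 0.0837 SE, limma adjusted p = 0.0141), a call lost without replicate 3 (limma adjusted p = 0.0579) or replicate 4 (limma adjusted p = 0.0647). All 4 of its values were under the level, and the sign turned when each library was rescaled to a fixed sum (0.19). Kcna10 was above 0 in 1 library only and Kcna7 was listed at 0. On chromosome 6, Kcna5, Kcna1 and Kcna6 lie in a row, 104984 bases apart between Kcna5 and Kcna1 and 61944 between Kcna1 and Kcna6, with means of 0.602, 6.91 and 11.5 FPKM.

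Kcnb2, a slow delayed rectifier, was at 1.35, 1.13, 1.44 and 1.11 FPKM (limma adjusted p = 0.178). Its values in all 4 libraries were above the level, but it did not pass the test. Amigo1, which codes for a partner of Kcnb channels, averaged 8.88 ± 1.65 FPKM and was above 1 FPKM (limma adjusted p = 1.16e-05).

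Of the Kcnd genes, which carry the transient A-type current of dendrites, Kcnd2 was at 11.1, 7.18, 9.11 and 9.25 FPKM (limma adjusted p = 9.06e-06) and Kcnd3 at 3.45, 1.86, 4.53 and 3.71 FPKM (limma adjusted p = 0.00252). Replicate 2 was lowest for both. Kcnd2 was higher in 4 of 4 libraries by 1.24 ± 0.30, with no overlap. Against the pan-endothelial median, Kcnd3 was below by -0.36, a call lost without replicate 1 (-0.35) or replicate 2 (-0.18). The third gene, Kcnd1, averaged 0.924 ± 0.378 FPKM and passed in neither direction. Dpp6 and Dpp10, auxiliary partners outside the Kcn names, averaged 23.7 ± 2.60 and 12.9 ± 4.41 FPKM and were above 1 FPKM.

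The Kcnq genes code for the slow M-type channels of neurons and for epithelial and cardiac channels. Kcnq3, a subunit of the neuronal channel, was at 1.63, 1.46, 3.06 and 2.27 FPKM (limma adjusted p = 0.0171), a call lost without replicate 4 (limma adjusted p = 0.0639). Kcnq5 averaged 2.57 ± 1.06 FPKM and was above 1 FPKM. Kcnq1, the epithelial and cardiac channel, was at 0.283, 0.364, 0.292 and 0.223 FPKM and was below (log2 difference -0.63 ± 0.0464 SE, limma adjusted p = 7.18e-05).

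Among the Kcnh genes (the eag, erg and elk channels), 4 of 8 were above 1 FPKM and 3 below. Kcnh3, an elk-type channel of forebrain neurons, was at 8.97, 8.31, 10.6 and 8.45 FPKM (limma adjusted p = 2.79e-06). Kcnh2, the erg channel that ends the cardiac action potential, was at 3.76, 3.20, 2.91 and 3.51 FPKM (limma adjusted p = 1.96e-04). The ranges of the 2 genes did not overlap. Kcnh1 and Kcnh7 averaged 3.20 ± 0.403 and 2.94 ± 0.574 FPKM and were above, and Kcnh5 averaged 1.54 ± 0.701 FPKM and passed in neither direction. Kcnh4, Kcnh6 and Kcnh8 averaged 0.0958 to 0.707 FPKM and were below, although for Kcnh4 the call was lost whichever library was left out (limma adjusted p of 0.0613 to 0.132).

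The Kcnf, Kcng, Kcns and Kcnv genes code for subunits that form no working channel alone and modify Kcnb channels. Of these 10 genes, 6 were above 1 FPKM, 2 below and 2 in neither. Kcnv1 was at 7.93, 8.36, 8.44 and 6.82 FPKM (limma adjusted p = 3.34e-06) and Kcnf1 at 7.90, 6.80, 9.81 and 6.44 FPKM (limma adjusted p = 1.72e-05). Neither gene had a value under 6.44 FPKM. Kcns1 was at 2.59, 3.798, 3.46 and 4.03 FPKM (limma adjusted p = 3.74e-04) and Kcns3 at 2.77, 3.26, 2.95 and 4.33 FPKM (limma adjusted p = 4.99e-04), with replicate 4 highest and replicate 1 lowest in both. Kcns2 averaged 1.87 ± 0.511 FPKM and was above, a call lost without replicate 2 (limma adjusted p = 0.0591) or replicate 3 (limma adjusted p = 0.0619).
Kcng4 was at 3.28, 3.74, 3.41 and 2.93 FPKM (limma adjusted p = 1.82e-04). Kcng1 was at 2.37, 1.16, 1.25 and 2.92 FPKM (limma adjusted p = 0.0572), and passed without replicate 2 (limma adjusted p = 0.0471). Kcng2 averaged 0.836 ± 0.139 FPKM and passed in neither direction. Kcng3 and Kcnv2 were each above 0 in 1 library, at 0.0122 FPKM in replicate 3 and 0.0118 FPKM in replicate 2.

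The calcium- and sodium-activated genes (Kcnma, Kcnn and Kcnt), counted together with Kcnu1, had 5 of 8 members above 1 FPKM (62.5%), 1 below (12.5%) and 2 in neither. All genes tested gave 47.7% above and 40.1% below. Kcnma1, the large-conductance calcium-activated channel, was at 7.10, 5.16, 8.25 and 6.59 FPKM (limma adjusted p = 2.78e-05). Kcnn2, a small-conductance channel of neurons, was at 10.5, 10.8, 8.62 and 9.62 FPKM (limma adjusted p = 1.76e-06). Replicate 3 was highest for Kcnma1 and lowest for Kcnn2, and replicate 2 was lowest for Kcnma1 and highest for Kcnn2. Kcnn3, the small-conductance channel of endothelium, was at 0.790, 0.342, 0.943 and 0.723 FPKM (limma adjusted p = 0.0899), under the level in all 4 libraries but not past the test. Kcnn4, the intermediate-conductance channel of endothelium and immune cells, was at 0.119, 0.139, 0.175 and 0.531 FPKM and was below (limma adjusted p = 7.81e-04).

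Kcnn3 was lower than Kcnn2 by -2.69 ± 0.34 in 4 of 4 libraries, with no overlap, and was higher than Kcnn4 by 0.45 ± 0.29 in 4 of 4, with overlapping ranges. Kcnn1 averaged 2.52 ± 0.209 FPKM and was above 1 FPKM. Kcnt1, a sodium-activated channel, was at 5.83, 4.42, 7.27 and 5.32 FPKM (limma adjusted p = 5.75e-05). Kcnt2 was at 3.19, 1.18, 2.07 and 1.96 FPKM (limma adjusted p = 0.0265), and its call was lost without replicate 1 (limma adjusted p = 0.0770), 3 (limma adjusted p = 0.0718) or 4 (limma adjusted p = 0.0730). Kcnu1, known as a sperm channel, was at 0.764, 1.20, 2.10 and 1.45 FPKM (limma adjusted p = 0.253).

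The auxiliary genes held the next 7 places by mean after Kcnj13 and Kcnk1. All 3 Kcnab genes, the cytoplasmic beta subunits of Kcna channels, were above 1 FPKM and above the pan-endothelial median. Kcnab2 was at 58.8, 34.2, 50.3 and 31.6 FPKM (limma adjusted p = 4.27e-06), with replicates 1 and 3 above the other two, the same split as in Kcna6. Kcnab1 was at 28.5, 29.97, 27.6 and 27.3 FPKM (limma adjusted p = 1.11e-07), with the smallest relative spread of all members, a coefficient of variation of 4.197%. Kcnab2 was higher than Kcnab1 in 4 of 4 libraries, by 0.56 ± 0.43, and Kcnab3 averaged 21.8 ± 1.38 FPKM.

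All 4 Kcnip genes, the calcium-binding partners of Kcnd channels, were also above both levels. Kcnip4 was at 30.4, 43.1, 37.8 and 34.9 FPKM (limma adjusted p = 4.39e-07) and Kcnip3 at 35.2, 40.8, 36.1 and 29.5 FPKM (limma adjusted p = 3.57e-07). Their ranges overlapped. Kcnip1 and Kcnip2 averaged 21.7 ± 3.35 and 12.9 ± 1.53 FPKM. In all 4 genes replicate 2 was highest, whereas it was lowest for Kcnd2 and Kcnd3.

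In the Kcne subfamily, small membrane subunits that modify Kcnq1 and other pores, 1 of 3 tested genes was above 1 FPKM. Kcne2, known from the stomach and the choroid plexus, was at 33.3, 22.2, 36.0 and 37.5 FPKM (limma adjusted p = 2.65e-06). Kcne2 was higher than Kcnq1, a pore with which it assembles, by 4.66 ± 0.39 in 4 of 4 libraries. Kcne1, whose nearest end lies 47852 bases from Kcne2 on chromosome 16, was listed at 0 in all 4. Kcne4 was at 1.86, 0.808, 0.619 and 1.02 FPKM (limma adjusted p = 0.909), on both sides of the level. Kcne3 averaged 0.233 ± 0.344 FPKM, with 0.743 FPKM in replicate 4, and was below.

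Of the Kcnmb genes, beta subunits of the Kcnma1 channel, Kcnmb4, the form known from neurons, was at 13.6, 14.9, 12.4 and 12.8 FPKM (limma adjusted p = 5.70e-07). Opposite-strand genes share 20.8% (Kcnmb4os2) and 10.7% (Kcnmb4os1) of its exonic bases. Kcnma1 was lower than Kcnmb4 in 4 of 4 libraries, by -0.90 ± 0.35, with no overlap. Kcnmb2 was at 1.79, 2.48, 2.25 and 1.96 FPKM (limma adjusted p = 0.00387). Kcnmb1, the smooth muscle form, was at 0.490, 0.958, 0.282 and 0.753 FPKM, under the level in all 4 libraries (limma adjusted p = 0.0525), and passed without replicate 2 (limma adjusted p = 0.0273). Kcnmb4 was higher than Kcnmb1 by 3.17 ± 0.20 in 4 of 4. Kcnmb3 was listed at 0. Kcnmb1 lies within the span of Kcnip1 on chromosome 11, on the opposite strand, and the 2 genes averaged 0.621 and 21.7 FPKM.

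**Figure D3:**
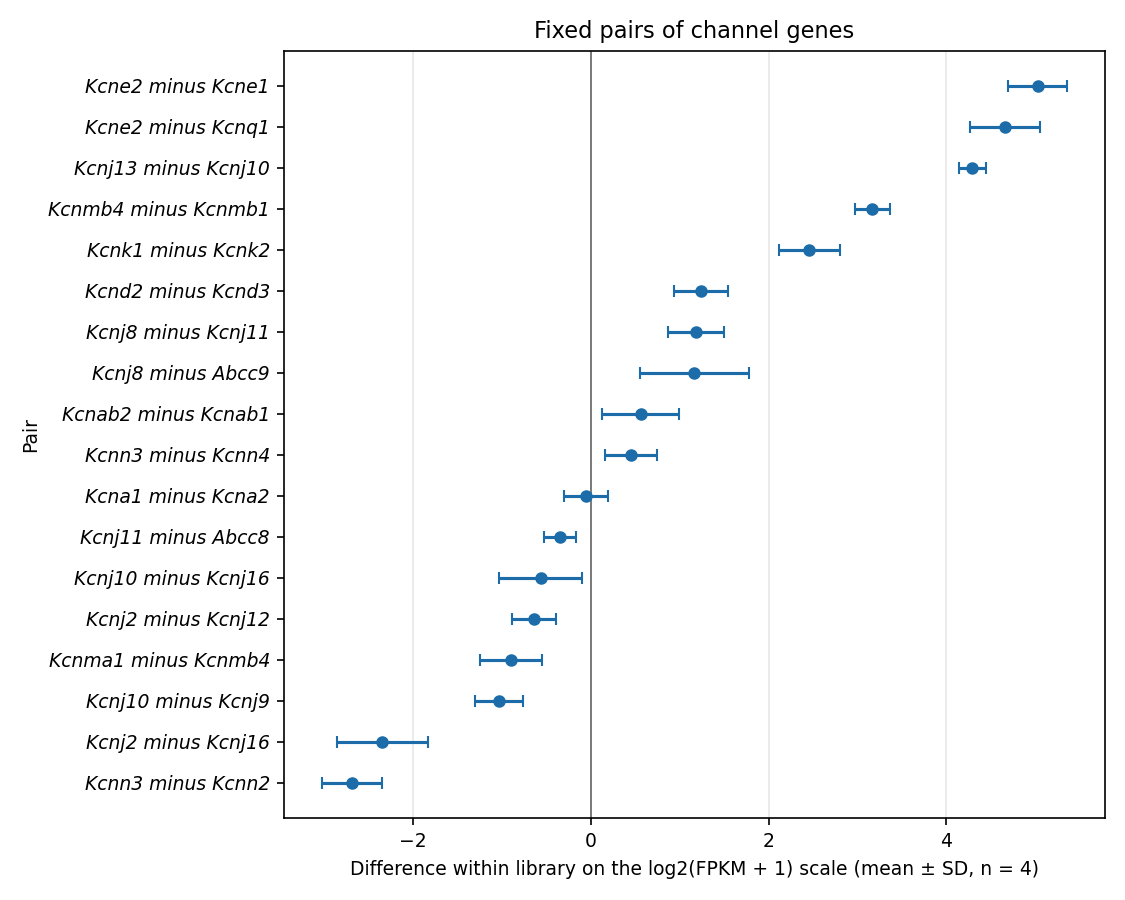
Mean difference within library, first gene minus second, on the log2(FPKM + 1) scale with its SD over 4 libraries, for 18 pairs of channel genes and partners. In 17 of the 18 pairs the difference had 1 sign in all 4 libraries, and Kcna1 minus Kcna2, at -0.06 ± 0.25, was the exception. The share of gene pairs of all kinds with 1 sign was not worked out, so the count is not read as a trait of these pairs.

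The members were also read by short textbook lists that put each channel under 1 cell type. Some, such as Kcna3 and Kcnk1, are known from other cells too. Beside these lists, all genes tested gave 47.7% above and 40.1% below 1 FPKM. Against the pan-endothelial median, all genes tested gave 30.6% above and 60.9% below. Lists of 3 genes are too short for their counts to be set apart from those shares, and the lists do not hold every channel of a cell type. Of the 3 endothelial members (Kcnj2, Kcnn3 and Kcnn4), 0 were above 1 FPKM in limma's test, adjusted or unadjusted, 1 was below and 2 were in neither, and all 3 were below the pan-endothelial median. Kcnj2, at 1.75 ± 0.759 FPKM, was above 1 FPKM when only genes of at least 0.1 FPKM were tested, when libraries were rescaled to a fixed sum, and, at an unadjusted p, without replicate 2. Kcnk2, a channel of neurons and brain vessels that these lists leave out, was above both levels. Of 3 mural members (Kcnj8, Kcnmb1 and Kcna5), 1 was above 1 FPKM and 1 below, and all 3 were below the pan-endothelial median. Kcnma1, whose beta subunit Kcnmb1 is the smooth muscle form, was put on the neuronal list and not here, and was above both levels. The 3 astroglial members (Kcnj10, Kcnj16 and Kcnk1) were above both. The neuronal list had 17 members, among them Kcna1, Kcna2, Kcnab2, Kcnc1, Kcnc2, Kcnd2, Kcnip4, Kcnj3, Kcnj6, Kcnj9, Kcnma1, Kcnmb4, Kcnn2, Kcnq3 and Kcnt1. Of the 17, 16 were above 1 FPKM, Kcnj6 being the exception, and 13 were above the pan-endothelial median and 2 below. Kcnj11, which neurons share with beta cells, was not on the list and passed in neither direction against 1 FPKM. Other members known from neurons were also left off, so the neuronal count depends on the choice of list. Among these, Kcnb2, Kcnh5, Kcnk9, Kcnk10 and Kcnk12 passed in neither direction against 1 FPKM and were below the pan-endothelial median. Kcnc4 and Kcnh3 were above both levels. Of the 3 choroid members, Kcnj13 and Kcne2 were above 1 FPKM and Kcnq1 below. Of the 3 microglial members, Kcnk13 and Kcna3 were above and Kcnk6 below.

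The markers of these cell types differed between libraries as well. The summed FPKM of the neuronal markers ranged from 2154 to 2776 over the 4 libraries, that of the astrocyte markers from 799 to 993 and that of the pan-endothelial markers from 192 to 250.03. No neuronal or astrocyte marker was listed at 0, and their part in these counts was not tested. Other genes for partners and relatives of these channels gave 10 above 1 FPKM, 3 below and 3 in neither of 16. All genes tested gave 47.7% above and 40.1% below, and the count of this chosen list was not tested against those shares. Among relatives, Hcn2, a pacemaker channel of neurons, averaged 11.9 ± 1.46 FPKM, Hcn3 1.57 ± 0.758 and Hcn4, the cardiac form, 0.233 ± 0.147 FPKM. Hcn2 was above, Hcn4 below and Hcn3 in neither. Of the proteins that gather Kcna channels on axons, Dlg4, Adam22 and Cntnap2 were above, at 11.4 ± 1.66, 9.27 ± 2.56 and 4.45 ± 1.03 FPKM. Of the gamma subunits of the Kcnma1 channel, Lrrc55 and Lrrc38 were above, at 2.70 ± 0.791 and 1.63 ± 0.343 FPKM, and Lrrc52 and Lrrc26 below, at 0.112 ± 0.224 and 0.0913 ± 0.0720 FPKM. A second entry for Lrrc38 was listed at 0 and was not tested.

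Kcnj13 and Kcne2 shared their order of libraries. Both were highest in replicate 4, then 3, then 1, and lowest in replicate 2. Ttr, the abundant transthyretin gene of the choroid plexus, was at 13933, 11398, 15859 and 16782 FPKM, in the same order, and so were the choroid markers Folr1 and Otx2. Aqp1, Clic6 and Kl had other orders, with replicate 2 lowest in each. Among members averaging at least 1 FPKM, 2 of 63 (3.17%) had this order, against 473 of 13654 genes of all kinds (3.46%), a share near that of all genes. Kcnj13 was higher than its astroglial relative Kcnj10 by 4.29 ± 0.15 in 4 of 4 libraries.

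**Figure D4:**
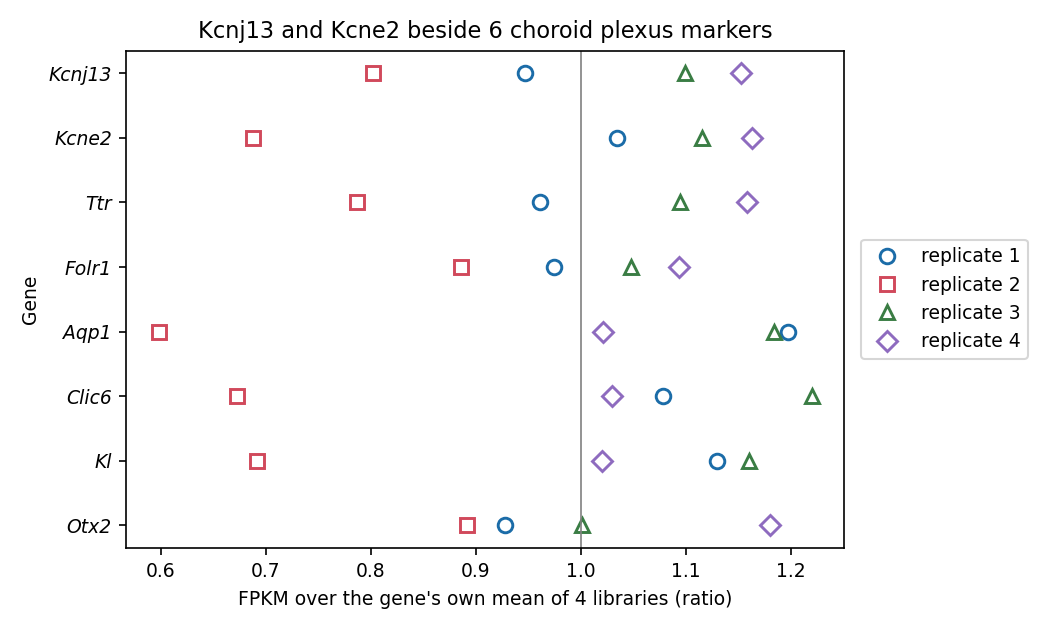
FPKM of Kcnj13, Kcne2 and 6 choroid plexus markers in each of 4 libraries, divided by the gene's own mean. Replicate 2 is lowest for all 8 genes, and Kcnj13, Kcne2, Ttr, Folr1 and Otx2 have the same order of libraries.

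Of the 63 members averaging at least 1 FPKM, 25.4%, 23.8%, 36.5% and 14.3% were highest in replicates 1 to 4, against 25.6%, 29.2%, 24.8% and 20.5% of the 13654 genes of all kinds at that level. The shares lowest there were 14.3%, 41.3%, 15.9% and 28.6% of members, against 25.1%, 27.5%, 23.6% and 23.8% of all genes. The median deviation from the gene's own mean was 0.04, -0.10, 0.06 and -0.04 on the log2(FPKM + 1) scale for members, against 0.01, 0.01, 0.01 and -0.01 for all genes. These differences between members and all genes were not tested. The members were also read by transcript length. In the tercile of members with the longest transcripts (5152 to 14845 bases), the median deviation from the gene's own mean was 0.07, -0.31, 0.19 and -0.02 in replicates 1 to 4 on the log2(FPKM + 1) scale. Among all genes, whose terciles were cut separately, the longest (4089 to 123179 bases) gave 0.12, -0.13, 0.09 and -0.08, with the same 2 libraries low. In the shortest tercile of members it was -0.07, 0.08, 0.01 and 0.02. The authors' FPKM may rest on other transcript lengths than these, which are each gene's longest in the annotation, and the part of length in the differences between libraries was not tested. Kcnq5 and Kcnd3, both in the longest tercile, were lowest in replicate 2 and highest in replicate 3.

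**Figure D5:**
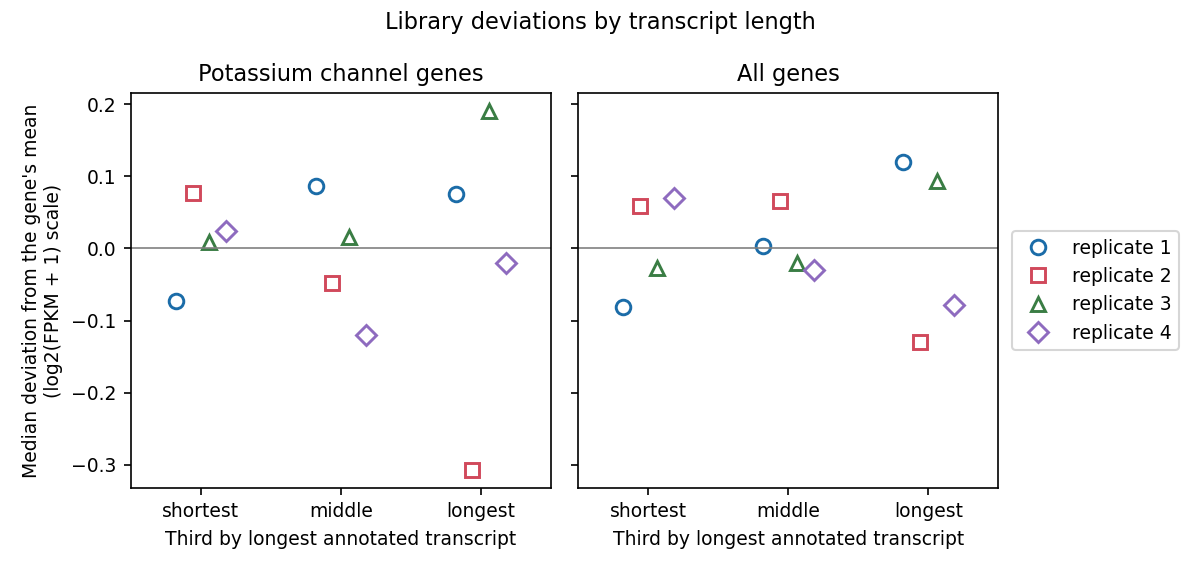
Median deviation of genes averaging at least 1 FPKM from their own mean, on the log2(FPKM + 1) scale, in each of 4 libraries, by tercile of longest annotated transcript, for 63 potassium channel genes and for all genes. Terciles were cut separately in each set, so their length ranges differ. In the longest tercile, replicate 2 is lowest in both panels, at -0.31 for the channel genes and -0.13 for all genes.

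In all, 28 of the 92 members share exonic bases with another annotated gene, 7 of them at least 10% of their own. Of the 31 overlapping pairs, 29 were on opposite strands. Neighbouring members often differed in level. Kcnj9 and Kcnj10 lie 11891 bases apart on chromosome 1 in opposite directions, and Kcnj10 was lower than Kcnj9 by -1.03 ± 0.27 in 4 of 4 libraries, with no overlap. On chromosome 3, Kcna3, Kcna2 and Kcna10 lie in a row and averaged 2.81, 7.33 and 0.0193 FPKM.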

How the data were processed

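The authors deposited 1 table of FPKM per gene for 4 libraries. Per the submitters' processing notes, the build was GRCm38 and the tools were StringTie 2.2.1, HISAT2 2.2.1, bcl2fastq 2.20 and SAMtools. The sources used here give neither their order nor the annotation release, the strand setting or the handling of multi-mapped reads. Low values showed no whole-read steps (the commonest ratio held 1.04% of 2605 low genes), so depth is unknown. FPKM divides by length and mapped total, so high genes lower all others.

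Members and lists were chosen with earlier results of these data known. limma 3.58.1 in R 4.3.3 tested log2(FPKM + 1), a pseudocount of 1 that understates low genes, for 25206 genes above 0 in any library, 2-sided, calling adjusted p (Benjamini-Hochberg) under 0.05. The script was checked on simulated data. Pairs had an exact sign-flip test over 16 sign patterns. Positions, overlaps and coding sequences came from GENCODE M21 (GRCm38), matched for 92 of 92 members. Named genes are the 2 highest of each subfamily, textbook cell-type members, pair members, partners, genes listed at 0 and the 5 most variable averaging at least 5 FPKM; the rest are given to complete each subfamily. Individual values of some members, and of some other genes and pairs tested, are not reported here, but counts over all members include them, except where a count names its genes.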

Additional observations from a re-analysis of the deposited data

Results flagged for a closer look

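Of the 86 members above 0 in any library, 10 had 1 library far from the other three (a gap to the nearest above Dixon's critical share of the range). Chance gives about 1 in 20 for normally distributed values, which FPKM near 0 need not be. The share of all genes flagged by this rule was not worked out, so the 10 are not read as an excess. In 5 of the 10 the other three libraries were listed at 0, which gives such a gap whatever the value: Kcna10 at 0.0770 FPKM in replicate 4, Kcng3 at 0.0122 in replicate 3, Kcnj15 at 0.129 in replicate 3, Kcnk15 at 0.0316 in replicate 1 and Kcnv2 at 0.0118 in replicate 2. The other 5 were highest in the library set apart: Kcnj9 at 21.6 FPKM in replicate 3, Kcnn4 at 0.531 in replicate 4, Kcne3 at 0.743 in replicate 4, Kcnh8 at 0.271 in replicate 1 and Kcnj5 at 0.626 in replicate 1. Of these 10, Kcnj9 alone averaged at least 1 FPKM.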

How the results depend on the processing

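No paired analysis was possible because the series has 1 group. With only genes of at least 0.1 FPKM tested, 5197 of all genes were below 1 FPKM and 9 members, against 10104 and 16 before, since fewer low genes enter. Rescaling each library to a fixed sum of 1000000 left 10 members below the level and moved the median of all 92 members to 5.42 in rescaled units. It also turned the differences from the level of 1 of Kcna5 (0.19), Kcnk6 (0.072) and Kcnj11 (0.48). A level of 0.5 FPKM left 10 members and 7734 of all genes below, and turned Kcna5 (0.090), Kcnk6 (0.025) and Kcnj11 (0.29). A level of 2 FPKM put 27 members and 12235 of all genes below, and turned Kcnb2 (-0.41), Kcne4 (-0.56) and Kcnj6 (-0.54). Both follow from moving the values or the level. Leaving out each library gave 51 to 53 members above 1 FPKM and 11 to 14 below, 30 to 31 above and 42 to 50 below the pan-endothelial median, 11579 to 11825 and 8909 to 9032 of all genes above and below 1 FPKM, 7404 to 7796 and 14164 to 14675 against the pan-endothelial median, a median of 2.45 to 2.59 FPKM and 20 to 21 pairs with 1 sign. With the mean of the markers as level, 26 members were above and 54 below, against 6695 and 16800 of all genes. Without markers under 1 FPKM, 29 members were above and 54 below, against 7127 and 16128 of all genes. A pseudocount of 0.1 gave 54 members above and 13 below 1 FPKM, no mean-variance trend 54 and 15, and each gene's own variance 52 and 14. The counts of all genes were 12094 and 9678, 12232 and 10083, and 11763 and 9380, in the same order. Depth limits every value near 0 to an unknown degree.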
